A study of Mus musculus with 6 samples.

Results

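This account describes 32 genes known for their expression in the choroid plexus, read in RNA-seq libraries of whole mouse cerebellum. They were taken by gene name from a table of 55098 genes, and all 32 passed the filter on low counts, which left 17142 genes for testing. The choroid plexus is the secretory epithelium inside the ventricles of the brain, one part of which lies under the cerebellum in the fourth ventricle. Its cells make cerebrospinal fluid by moving ions, bicarbonate and water, release carrier proteins such as transthyretin, and seal the barrier between blood and fluid with tight junctions. The homeobox factor Otx2 is needed to form the tissue and to keep its gene programme.

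The libraries came from male mice at postnatal day 60. There were 3 wild-type mice (WT, animals 1, 3 and 5) and 3 mice labelled as lacking Slc39a14 (KO, animals 2, 4 and 6), with 1 library per animal. Slc39a14 encodes ZIP14, a transporter of manganese and other metals, and the series presents the KO mouse as a model of manganese-induced dystonia with parkinsonism. The sources used here do not give the strain, the construction of the KO allele, the tissue it covers or how the plexus was handled at dissection. The p-values measure the spread between these animals.

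Library totals ran from 13805997 to 15788135 counts, so that 1 count was worth 0.0628 to 0.0731 CPM, the count scaled to a common library total. Slc39a14 itself was not lower in KO libraries, with 582, 646 and 598 counts in WT 1, 3 and 5 and 654, 572 and 640 in KO 2, 4 and 6 (log2 fold change -0.0035, SE 0.11); whether its counted exons lie outside the deleted sequence was not tested. WT and KO therefore stand for the labels of the libraries throughout, and every direction between them rests on those labels. The cerebellar neuron markers, a list of 14 genes that includes Pcp2 and Calb1, were all tested and summed to 12434 to 13084 CPM in WT and 12118 to 13269 in KO. On the first principal component of the 1000 most variable genes (29.6% of the variance), WT 5 and KO 4 stood on one side at 25.9 and 15.4. The other libraries lay between -15.2 and -4.80. The second component (26.9%) separated the labels, with WT libraries at 10.3 to 17.4 and KO libraries at -17.6 to -7.84. Because WT 5 had the lowest and KO 4 the highest level of most choroid plexus genes, results that rest on them are also given without both.

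Transthyretin (Ttr), the carrier of thyroid hormone and retinol-binding protein in cerebrospinal fluid, had the highest level of the 32 genes on the per-length scale, a mean of 580 FPKM over the 6 libraries. Enpp2, which encodes autotaxin, the enzyme that makes lysophosphatidic acid, came next at 105 FPKM. Trpm3 (26.2 FPKM) and 1500015O10Rik (12.2 FPKM) followed. The other 28 genes had mean levels between 0.410 FPKM (Krt8) and 6.10 FPKM (Cab39l). The choroid plexus genes thus spanned over 3 orders of magnitude in the same libraries.

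Ttr was the most uneven of the abundant members. It was at 123 CPM in WT 5, 229 in WT 3, 554 in KO 6, 667 in WT 1, 1236 in KO 2 and 1655 in KO 4. These values rest on 1677 to 23699 counts, and the highest library had 13.5 times the level of the lowest. The order of the libraries by Ttr was therefore WT 5, WT 3, KO 6, WT 1, KO 2, KO 4, in which the genotypes interleave: KO 6 lay below WT 1. Neighbours in this order cannot be separated by a test, since each is a single library. In a bulk sample, fewer plexus cells and less RNA per plexus cell cannot be told apart.

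Most of the other 31 genes followed this order. Of the 15 pairs of libraries, 21 of 31 genes put all 15 in the order of Ttr, against 0.42% of all tested genes. A gene was said to follow Ttr at 13 or more pairs in order, which 27 of 31 did, against 2.98% of all tested genes. 1500015O10Rik, Msx1, Otx2 and Steap1 kept 14 pairs, and Calml4 and Perp kept 13. The 4 genes that did not follow were Rdh5 and Sulf1, with 12 pairs, and Spint2 and Trpm3, with 11. Counting Ttr, 28 of the 32 genes were lowest in WT 5 and 31 were highest in KO 4. KO 6 lay below WT 1 in 30 of the 32 genes.

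**Figure D1:**
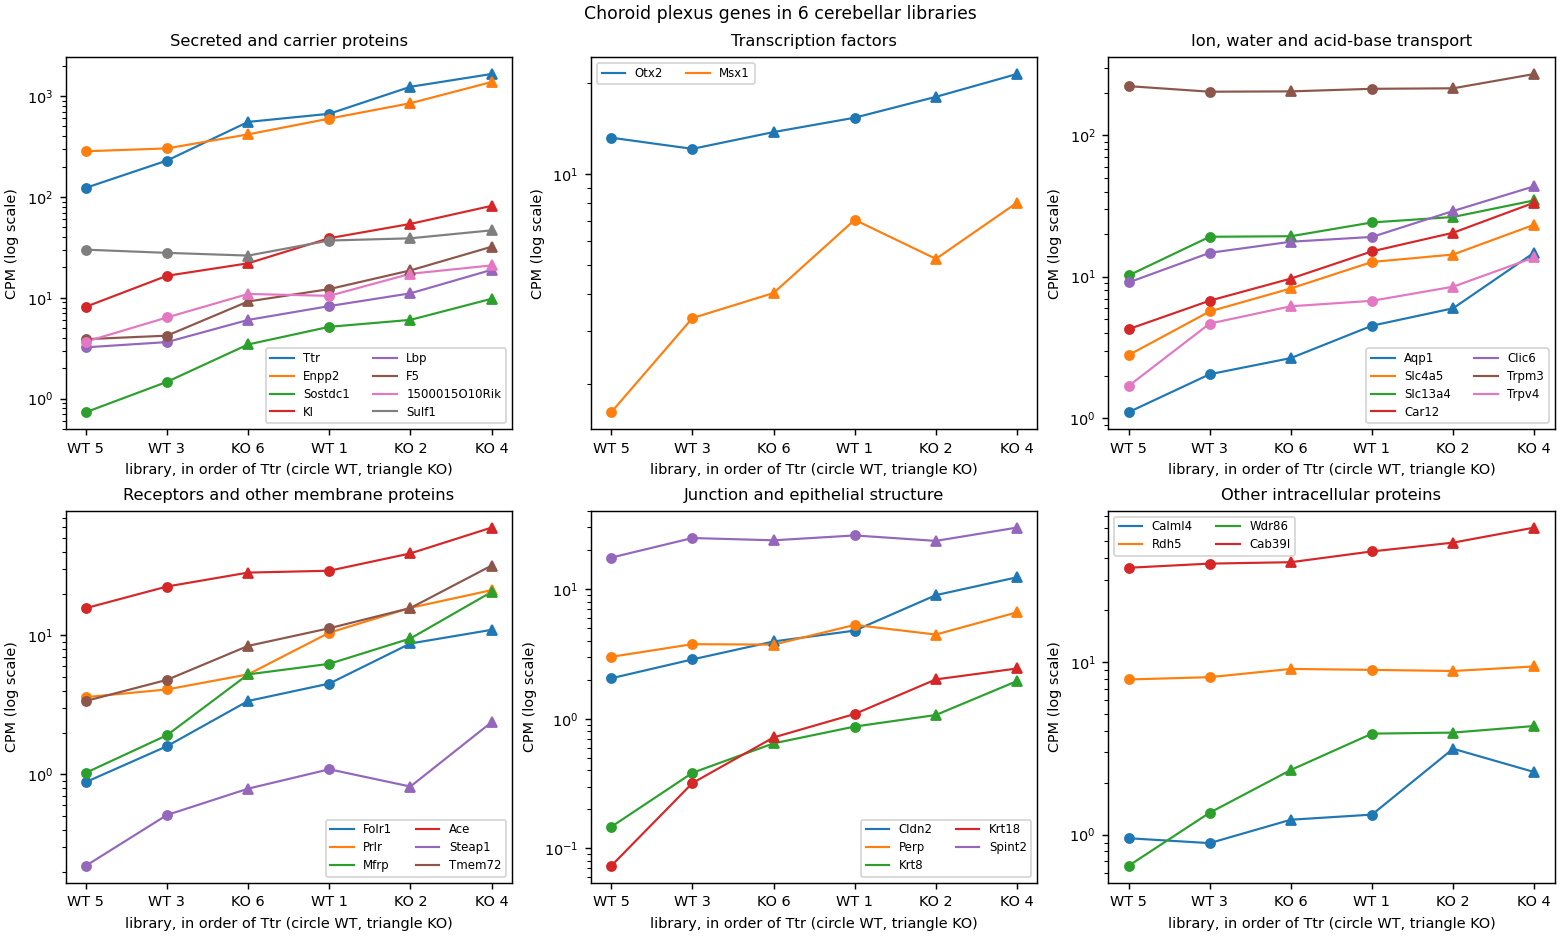
CPM on a log axis of the 32 choroid plexus genes, in 6 panels by role, with the libraries on the x axis in the order of Ttr from WT 5 to KO 4 (circles WT, triangles KO; 1 point per library). Most lines climb from left to right, while Trpm3 and Rdh5 stay nearly level. Spint2, Cab39l, Otx2 and Sulf1 have a narrow range (1.70- to 1.78-fold).

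The order held within each genotype as well. Among the 3 WT libraries, 27 of 31 genes had the order WT 5, WT 3, WT 1, against 19.5% of all tested genes. Among the 3 KO libraries, 28 of 31 had the order KO 6, KO 2, KO 4, against 24.0%. Both orders were kept by 25 of 31, against 2.09%. With WT 5 and KO 4 both left out, an alternative added after seeing the data, 24 of 31 genes kept all 6 remaining pairs in order, against 5.3% of all tested genes. Most of these genes thus kept the order of Ttr without the libraries at its ends.

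To measure how steeply each gene went with Ttr, its log2 level was fitted on log2 CPM of Ttr over the 6 libraries. A slope of 1 means in proportion to Ttr, and a slope of 0 means no relation. Among all tested genes, 21 had a slope that passed the test, all of them positive, and 17 of these were among the 31 choroid plexus genes, against 0.123% of all tested genes (edgeR quasi-likelihood F test, adjusted p under 0.05). All 31 slopes were positive, against 49.3% of all tested genes, with a median of 0.68 beside -0.001 for all tested genes. The slopes that passed ran from 0.45 (Ace) to 1.15 (Krt18). The 95% interval of the slope reached 1 for 7 of these 17 genes, namely Krt18, Mfrp, Folr1, Sostdc1, Aqp1, F5 and Tmem72. The count of 17 rests on single libraries: it was 8 without KO 4, 9 without KO 2, 11 without WT 3 and 2 without both WT 5 and KO 4, while the median slope stayed between 0.59 and 0.69 in each of these fits. With each single library left out in turn, 7 of the 17 passed every time, namely F5, 1500015O10Rik, Car12, Folr1, Kl, Mfrp and Tmem72, and the other 10 lost the call at least once. DESeq2 called 21 of 31, adding Msx1, Slc13a4, Trpv4 and Wdr86, among 46 called of 32045 genes. Without a count filter, edgeR called 19 of 31 (33 of 32045 genes), and with robust shrinkage 18 (22 of 17141). With genotype added to the fit, only Kl passed (1 of 31, against 0.00583% of all tested genes), and the median slope was 0.72 with all 31 positive, against 49.1%.

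**Figure D2:**
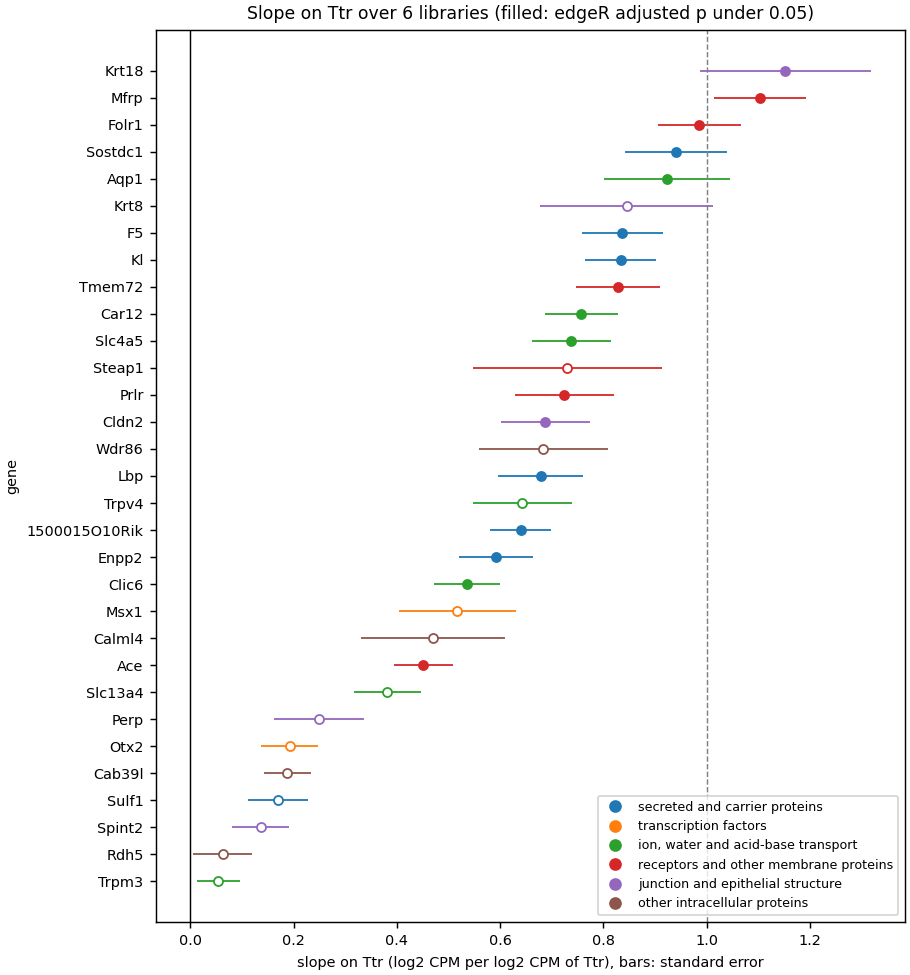
Slope on Ttr (log2 CPM per log2 CPM of Ttr, over 6 libraries) of each of the 31 genes, with bars of 1 standard error; colours give the role, and filled points passed the edgeR test. Slopes run from 0.05 for Trpm3 to 1.15 for Krt18, and the dashed line marks proportion to Ttr.

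Among the secreted proteins, the slope on Ttr passed the edgeR test for 6 of the 7 other genes, all but Sulf1. Sostdc1, a secreted inhibitor of BMP and Wnt signals, was at 0.733 CPM in WT 5, 1.47 in WT 3, 3.45 in KO 6, 5.15 in WT 1, 6.04 in KO 2 and 9.77 in KO 4. Its slope was 0.94 (SE 0.099, edgeR adjusted p = 0.00709). The libraries stood in the order of Ttr without exception, and the genotypes overlapped. Kl encodes klotho, a co-receptor for FGF23 that is also shed into the fluid. It was at 8.14 CPM in WT 5, 16.5 in WT 3, 22.0 in KO 6, 39.0 in WT 1, 54.0 in KO 2 and 81.6 in KO 4. The slope of Kl was 0.83 (SE 0.069, edgeR adjusted p = 0.00273) and 1.00 with genotype in the fit (edgeR adjusted p = 0.0311), so that it passed with and without that term. F5, coagulation factor V, ran from 3.89 CPM in WT 5 to 32.05 in KO 4 with a slope of 0.84, and Lbp, which binds bacterial lipopolysaccharide, ran from 3.23 to 18.9 CPM in the same libraries with a slope of 0.68.

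Enpp2 rose with Ttr but less than in proportion. It was at 283 CPM in WT 5, 303 in WT 3, 417 in KO 6, 598 in WT 1, 850 in KO 2 and 1377 in KO 4. All 15 pairs were in order, yet WT 5 and WT 3 differed far less for Enpp2 than for Ttr. The slope was 0.59 (SE 0.072, edgeR adjusted p = 0.0156). A straight line through the 6 CPM values put Enpp2 at 125 CPM where Ttr would be 0, or 44.2% of its level in WT 5. The line added 68.9 CPM for each 100 CPM of Ttr. As background, autotaxin is also made by oligodendrocytes. 1500015O10Rik, the gene of the secreted peptide precursor augurin, was at 3.67 CPM in WT 5, 6.38 in WT 3, 10.9 in KO 6, 10.5 in WT 1, 17.3 in KO 2 and 20.9 in KO 4 (slope 0.64, SE 0.059, edgeR adjusted p = 0.0040). It was the only one of the 32 genes with every KO library above every WT library, against 3.58% of all tested genes. Sulf1, which trims sulfate groups from heparan sulfate outside the cell, had a narrow range of 26.2 CPM in KO 6 to 46.6 in KO 4, and its slope of 0.17 (SE 0.058) did not pass.

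The transcription factors Otx2 and Msx1 both followed the order of Ttr at 14 pairs, and neither slope passed the edgeR test. Otx2 was at 13.2 CPM in WT 5, 12.1 in WT 3, 13.8 in KO 6, 15.4 in WT 1, 18.1 in KO 2 and 21.5 in KO 4. Its range was thus 1.77-fold while that of Ttr was 13.5-fold, and the slope was 0.19 (SE 0.056). Msx1, a homeobox gene of dorsal midline tissue, was at 1.61 CPM in WT 5, 3.32 in WT 3, 4.02 in KO 6, 7.04 in WT 1, 5.22 in KO 2 and 8.03 in KO 4. KO 2 lay below WT 1 for Msx1, the only pair out of order, and the slope was 0.52 (SE 0.11, adjusted p = 0.382 by edgeR and 0.0415 by DESeq2).

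Because Otx2 binds DNA at the letters TAATCC, the 250 bases before the RefSeq starts of the choroid plexus genes were searched for this run and its reverse complement GGATTA on both strands (RefSeq, build GRCm38.p6). An entry was held for 24 of the 32 genes, and 3 of these 24 had a match (12.5%), against 7.21% of all 27025 genes with an entry. Counted by start, since some genes have several, it was 3 of 32 starts (9.38%), against 6.25% of all 32851. No entry was held for Ttr itself or for Enpp2, Sostdc1, Lbp, Sulf1, Clic6, Folr1 and Perp. The matches lay before Ace, Mfrp and one start of Otx2 itself, and the sequences are shown with the match in capitals, 5′ to 3′ on the strand of the gene, so that the 3 windows can be compared.
Ace: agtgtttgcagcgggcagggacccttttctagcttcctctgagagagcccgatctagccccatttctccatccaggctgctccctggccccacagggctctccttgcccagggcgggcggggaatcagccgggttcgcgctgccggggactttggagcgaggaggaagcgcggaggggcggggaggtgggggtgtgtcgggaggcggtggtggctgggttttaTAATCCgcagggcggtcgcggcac
Mfrp: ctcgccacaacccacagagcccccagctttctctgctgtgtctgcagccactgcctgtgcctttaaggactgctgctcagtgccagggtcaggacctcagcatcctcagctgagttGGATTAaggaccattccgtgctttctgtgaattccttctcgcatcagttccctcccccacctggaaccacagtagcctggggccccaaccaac
Otx2: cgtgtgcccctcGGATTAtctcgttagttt
The Ace stretch is chr11:105967698-105967944 on the plus strand, with the match 27 to 22 bases before the start. The Mfrp stretch is chr9:44101520-44101728 on the plus strand, with the match 134 to 129 bases before the start. The Otx2 stretch is chr14:48665303-48665332 on the minus strand, with the match 211 to 206 bases before a start that lies 8710 bases inside the gene as the table has it. Bases that GENCODE M21 places in an exon are left out for Ace and Mfrp, and 30 bases are shown for Otx2, whose match lies in an exon of another transcript. A match describes the letters in these windows and does not show binding.

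Among the 7 genes of ion, water and acid-base transport, 4 had a slope on Ttr that passed the edgeR test. Aqp1, the water channel of the apical membrane (chr6:55336432-55348555), was at 1.10 CPM in WT 5, 2.04 in WT 3, 2.66 in KO 6, 4.50 in WT 1, 5.98 in KO 2 and 14.8 in KO 4. The KO 4 value stood well above the rest, and the slope was 0.92 (SE 0.12, edgeR adjusted p = 0.0242). Clic6, a chloride intracellular channel protein, was at 9.10 CPM in WT 5, 14.7 in WT 3, 17.7 in KO 6, 19.1 in WT 1, 29.1 in KO 2 and 43.6 in KO 4 (slope 0.54, SE 0.064, edgeR adjusted p = 0.0156). All 15 pairs were in order for both genes. The other members of this role that passed were Car12, a membrane-bound carbonic anhydrase (4.25 CPM in WT 5 to 33.4 in KO 4, slope 0.76), and Slc4a5, a sodium bicarbonate cotransporter (2.79 to 23.3 CPM, slope 0.74).

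The remaining transport genes did not pass by edgeR, although DESeq2 called Trpv4 and Slc13a4. Trpv4, a cation channel that senses osmotic and mechanical stimuli, ran from 1.69 CPM in WT 5 to 13.7 in KO 4 with all pairs in order, and its slope of 0.64 (SE 0.096) missed the threshold (edgeR adjusted p = 0.0552), but passed without a count filter (0.0097), with robust shrinkage (0.0464) and by DESeq2 (8.5e-06). Slc13a4, a sulfate transporter, ran from 10.2 CPM in WT 5 to 34.6 in KO 4 with all pairs in order (slope 0.38, SE 0.065, edgeR adjusted p = 0.119, or 0.0274 without a count filter and 0.000157 by DESeq2). Trpm3, a cation channel gene that neurons use too, was nearly flat at 222 CPM in WT 5, 203 in WT 3, 204 in KO 6, 213 in WT 1, 215 in KO 2 and 271 in KO 4. Its slope was 0.05 (SE 0.042), and -0.0071 without KO 4, so that even its sign rests on that library. A straight line through the CPM values gave each gene a level where Ttr would be 0. In CPM this level was highest for Trpm3 (198), Enpp2 (125) and Cab39l (32.3), which are abundant genes. As a share of the level in WT 5 it was 89.2%, 44.2% and 91.9% for these, and highest for Wdr86 (161%). The line fell below 0 for Mfrp, Aqp1, Krt18 and Folr1, so it does not describe every gene.

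The receptors and other membrane proteins were the group nearest to proportion with Ttr, with a median slope of 0.78. The slope passed the edgeR test for 5 of 6. Folr1, the folate receptor that carries folate across the plexus (chr7:101858331-101870788, minus strand), was at 0.880 CPM in WT 5, 1.595 in WT 3, 3.37 in KO 6, 4.50 in WT 1, 8.74 in KO 2 and 11.0 in KO 4. Its slope was 0.99 (SE 0.080, 95% interval 0.81 to 1.17, edgeR adjusted p = 0.00273). Per 1000 Ttr counts there were 6.09 to 7.16 Folr1 counts in every library, a spread of 1.18-fold. Folr1 itself spread 12.5-fold over the libraries and Ttr 13.5-fold. Folr1 had 12 counts in WT 5 and 157 in KO 4, so the ratio in WT 5 rests on few reads. Mfrp, a membrane protein with a frizzled-like domain, was at 1.03 CPM in WT 5, 1.91 in WT 3, 5.24 in KO 6, 6.24 in WT 1, 9.50 in KO 2 and 20.5 in KO 4. The slope of Mfrp was 1.10 (SE 0.089, edgeR adjusted p = 0.00273), and its counts per 1000 Ttr counts ran from 7.69 to 12.4. Mfrp shares 1589 of its 4334 exon bases with C1qtnf5 on the same strand, which is listed at 0 counts, so the counts of these genes cannot be told apart there.

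The other genes of this role ran through the same order. Prlr, the prolactin receptor, was at 3.59 CPM in WT 5, 4.08 in WT 3, 5.24 in KO 6, 10.5 in WT 1, 15.8 in KO 2 and 21.2 in KO 4 (slope 0.72, SE 0.095, edgeR adjusted p = 0.0242). KO 6 lay between the lower WT libraries and WT 1 for Prlr. Ace, the angiotensin-converting enzyme, was at 15.7 CPM in WT 5, 22.5 in WT 3, 28.3 in KO 6, 29.2 in WT 1, 38.9 in KO 2 and 59.6 in KO 4. Ace had the smallest slope of those that passed (0.45, SE 0.056, edgeR adjusted p = 0.0178). Tmem72, a transmembrane protein, ran from 3.37 to 31.8 CPM (slope 0.83), and Steap1, of a family of metalloreductases, had only 3 to 34 counts per library and a slope of 0.73 (SE 0.18) that did not pass.

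**Figure D3:**
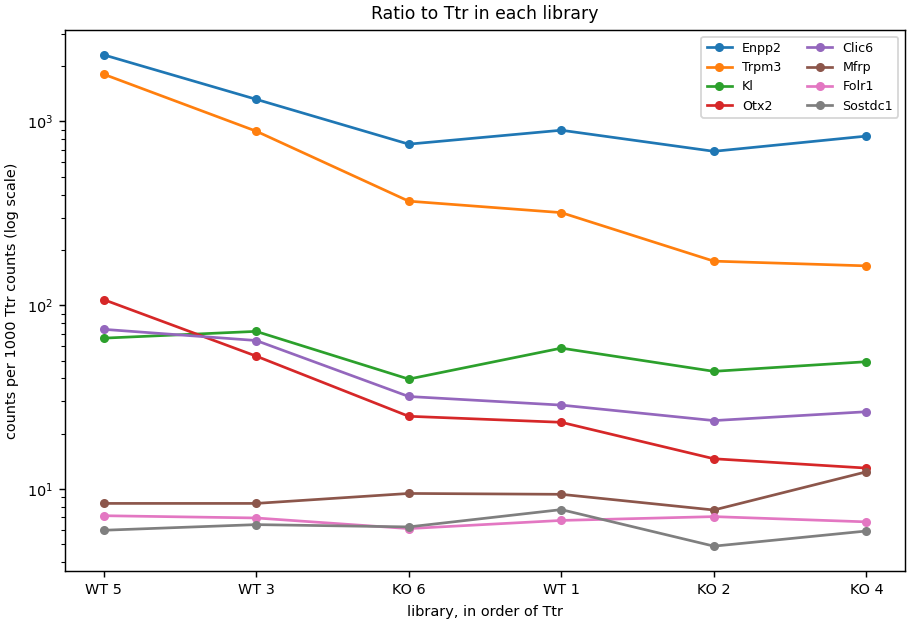
Counts per 1000 Ttr counts on a log axis for 8 of the genes, with the libraries on the x axis in the order of Ttr (1 point per library). Folr1, Sostdc1 and Mfrp are nearly level, at 6.09 to 7.16, 4.89 to 7.72 and 7.69 to 12.4, while Trpm3 drops from 1808 in WT 5 to 164 in KO 4.

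Of the 5 genes of junctions and epithelial structure, 2 had a slope on Ttr that passed the edgeR test. Cldn2, the claudin that makes tight junctions permeable to sodium and water (chrX:139800828-139811386), was at 2.05 CPM in WT 5, 2.87 in WT 3, 3.95 in KO 6, 4.79 in WT 1, 8.995 in KO 2 and 12.4 in KO 4. Its slope was 0.69 (SE 0.086, edgeR adjusted p = 0.0178). The keratins Krt8 and Krt18, partners in the filaments of simple epithelia, rest on few reads. Krt18 had 1 count in WT 5, 5 in WT 3, 10 in KO 6, 15 in WT 1, 32 in KO 2 and 35 in KO 4 (slope 1.15, SE 0.17, edgeR adjusted p = 0.0409). The call of Krt18 was lost when any 1 library was left out (edgeR adjusted p = 0.114 to 0.292). Krt8 had 2 to 28 counts in the same order, and its slope of 0.85 (SE 0.17) did not pass. Perp, a desmosome protein, had a slope of 0.25 (SE 0.087) and Spint2, a membrane-bound protease inhibitor, one of 0.14 (SE 0.055), neither of which passed. Without WT 5 and KO 4 the slope of Spint2 was -0.02.

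None of the 4 other intracellular proteins had a slope that passed by edgeR, and DESeq2 called Wdr86. Cab39l, a scaffold protein of the LKB1 kinase complex, was at 35.1 CPM in WT 5, 37.1 in WT 3, 37.8 in KO 6, 43.7 in WT 1, 49.1 in KO 2 and 60.0 in KO 4. All 15 pairs were thus in order over a range of only 1.71-fold (slope 0.19, SE 0.045, edgeR adjusted p = 0.593). Calml4, a calmodulin-like protein, was the only one of the 32 genes that was highest outside KO 4, at 3.15 CPM in KO 2 against 2.30 in KO 4 (13 to 50 counts per library). Rdh5, a retinol dehydrogenase, stayed between 7.92 and 9.43 CPM (slope 0.06, SE 0.057), and it shares 720 of its 2809 exon bases with Bloc1s1 on the same strand. Wdr86, a WD-repeat protein, ran from 0.660 to 4.26 CPM with all pairs in order (slope 0.68, SE 0.12, adjusted p = 0.18 by edgeR and 0.0143 by DESeq2).

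When libraries labelled KO were compared with those labelled WT, none of the 32 choroid plexus genes passed the test. The edgeR quasi-likelihood test called 8 of 17142 genes (0.0467%), all with higher levels in KO, and none of these 8 was among the 32. DESeq2 and limma-voom also called 0 of the 32. Without any count filter, edgeR called 18 of the 32, among 142 of 32046 genes. In that fit the SE of the Ttr log2 fold change was 0.11, beside 0.56 with the filter, and the cause was not tested. With the filter, all 32 log2 fold changes were positive, against 48.8% of all tested genes. An unadjusted edgeR p under 0.05 was found for 20 of 32, against 2.75% of all tested genes. Those 20 were all higher in KO, against 1.69% of all tested genes with an unadjusted p under 0.05 in that direction. The groups did not overlap for 1 of 32 genes, 1500015O10Rik, against 7.26% of all tested genes, or 3.58% with every KO library on the higher side.

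The median log2 fold change of KO over WT was 1.14, beside -0.004 for all tested genes, and single genes ran from 0.11 (Trpm3) to 1.94 (Mfrp). Ttr was at 340 ± 288 CPM in WT and 1148 ± 555 in KO (SD, n = 3 each), a log2 fold change of 1.76 (SE 0.56, edgeR adjusted p = 1.0). Enpp2 was at 395 ± 176 and 882 ± 481 CPM (SD, n = 3 each), a log2 fold change of 1.16 (SE 0.40). By role, the median log2 fold change was 1.38 for receptors and for junction genes, 1.29 for secreted proteins, 1.11 for transport genes, 0.60 for other intracellular proteins and 0.46 for the 2 transcription factors. KO 4 lay above every WT library in 32 of 32 genes and KO 2 in 26 of 32, whereas KO 6 lay below WT 1 in 30. The median was 1.78 without WT 1, 0.76 without KO 4 and 0.47 without both WT 5 and KO 4. In the authors' deposited table, of 29692 genes with an adjusted p, 38 passed, and 0 of the 32 were among them.

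With log2 CPM of Ttr as a term in the fit, the log2 fold changes of the other 31 genes were mostly negative. Their median was -0.17, beside -0.002 for all tested genes, and they ran from -0.78 (Msx1) to 0.35 (Calml4). Of the 31, 5 were positive, against 49.6% of all tested genes. No gene of the table passed in this edgeR fit, and 1 of 31, Kl (-0.55, SE 0.22), had an unadjusted p under 0.05, against 1.44% of all tested genes.

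**Figure D4:**
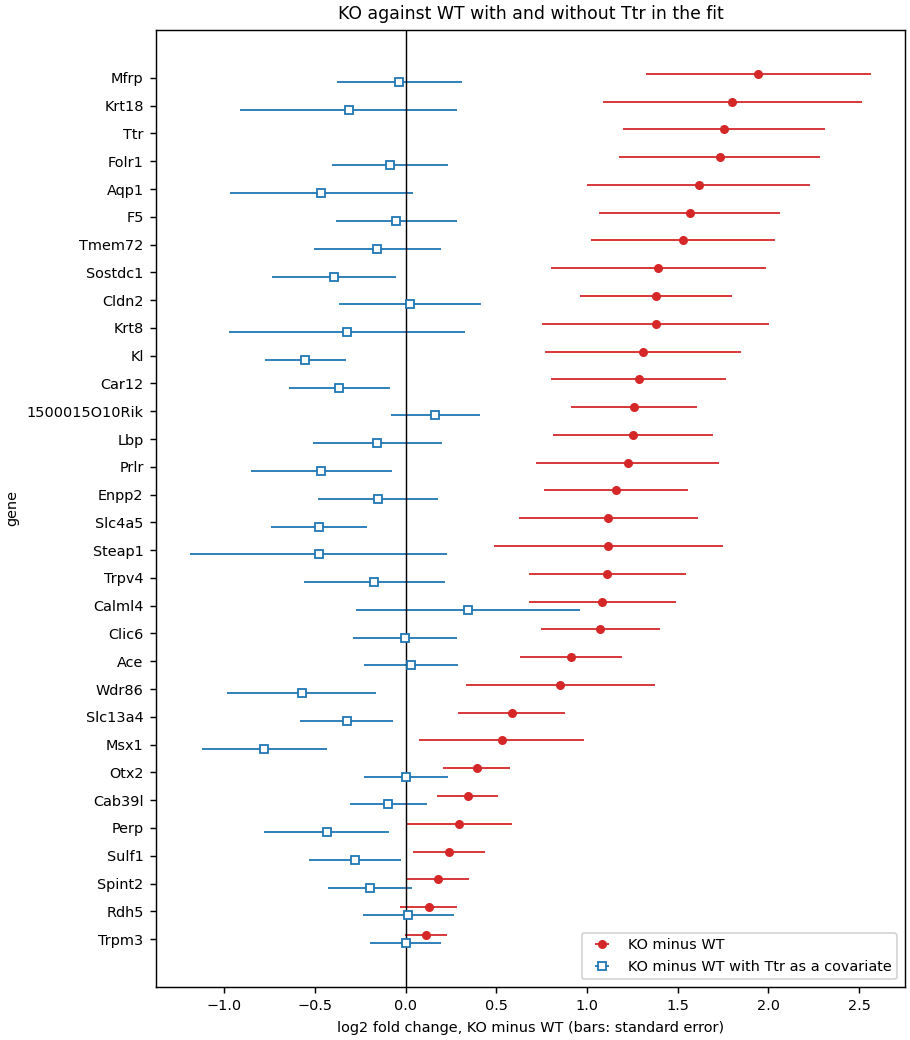
Log2 fold change of KO over WT for each of the 32 genes (filled circles) and the same with Ttr in the fit (open squares, 31 genes), with bars of 1 standard error. The filled circles run from 0.11 to 1.94, and the open squares from -0.78 to 0.35.

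A second list of 26 choroid plexus genes, chosen as further markers and transporters of the tissue, was measured in the same way. There were 23 that were tested (Cldn3, Slc28a3 and Slco1a5 did not pass the filter). All 23 slopes on Ttr were positive, against 49.3% of all tested genes, with a median of 0.26. The order of Ttr was followed by 11 of 23, against 2.98% of all tested genes. A slope passed for 3 of 23, against 0.123% of all tested genes. Cldn1, a tight junction protein (slope 0.96, SE 0.11), Kcne2, a potassium channel subunit (0.78, SE 0.11), and Col8a2, a collagen of basement membranes (0.57, SE 0.082), passed with edgeR adjusted p of 0.0120, 0.0309 and 0.0409. Cldn1 was at 0.513 CPM in WT 5, 1.66 in WT 3, 2.44 in KO 6, 2.83 in WT 1, 6.35 in KO 2 and 8.52 in KO 4, in the order of Ttr with the genotypes overlapping. The genes of this list with the highest mean CPM were Slc12a2, a sodium, potassium and chloride cotransporter (251 CPM, slope 0.05, SE 0.047), and Vat1l (128 CPM, slope 0.04, SE 0.038), and neither passed. Of the 23, 22 had a positive log2 fold change of KO over WT, against 48.8% of all tested genes, with a median of 0.39. In that edgeR test 0 of 23 passed, against 0.0467% of all tested genes. Its unadjusted p was under 0.05 for 9 of 23, all higher in KO, against 2.75% of all tested genes, or 1.69% in that direction. The groups did not overlap for 4 of 23, again all higher in KO, against 7.26%, or 3.58% in that direction.

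Markers of neighbouring cell types had smaller slopes on Ttr, although WT 5, the library lowest in Ttr, was also lowest in the summed ependymal and meningeal markers. The 15 ependymal markers, from the ciliated lining of the ventricles, summed to 26.0 CPM in WT 5 and 31.7 to 40.6 in the other 5 libraries. Of the 12 tested, 1 followed the order of Ttr, against 2.98% of all tested genes, and the median slope was 0.09. The highest of them, Foxj1, the master regulator of motile cilia, and Hydin, a component of cilia, had slopes of 0.18 (SE 0.10) and 0.04 (SE 0.11). Meningeal fibroblast markers summed to 529 CPM in WT 5, 861 and 904 in WT 1 and WT 3 and 912 to 1020 in KO. All 14 of these that were tested had positive slopes, against 49.3% of all tested genes, with a median of 0.11. All 14 slopes were also positive with genotype in the fit, against 49.1%. The order of Ttr was followed by 2 of 14, against 2.98%. Log2 fold changes of KO over WT were positive for 14 of 14, against 48.8%, with a median of 0.26. Ptgds and Col1a2 had slopes of 0.16 (SE 0.081) and 0.18 (SE 0.070). A further pair of lists was higher in KO as sums. Endothelial and mural markers summed to 466 to 490 CPM in WT and 494 to 575 in KO. Microglia markers summed to 107 to 117 CPM in WT and 133 to 167 in KO. Log2 fold changes were positive for 11 of 15 and 7 of 8 of these, against 48.8% of all tested genes. The lowest microglia value was -0.79. Groups did not overlap for 1 of 15 and 5 of 8 (4 of them higher in KO), against 7.26% of all tested genes. No list of other cell types had a slope that passed. Median slopes were 0.04 for endothelial and mural cells, 0.01 for cerebellar neurons, 0.06 for microglia, -0.01 for astrocytes and Bergmann glia, -0.03 for oligodendrocytes and -0.14 for blood cells, beside 0.68 for the choroid plexus genes. The markers with the highest CPM in these lists had small slopes, such as Slc2a1 and Rgs5 (0.08 and 0.02), Itpr1 and Car8 (0.02 and 0.01), Mbp (-0.01) and Csf1r (-0.001). Of 12 genes of brainstem neurons and the Hox family, 4 were tested, with a median slope of -0.01, and Hoxb3, Hoxa5 and Hoxb5 had no count in any library. The part of any of these cell types in the values above was not tested. A list of 8 interferon-induced genes, which were higher in every KO library than in every WT library, had a median slope on Ttr of 0.65 without any slope that passed. None of those 8 followed the order of Ttr, and their median slope was -0.20 with genotype in the fit, beside 0.72 for the choroid plexus genes.

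**Figure D5:**
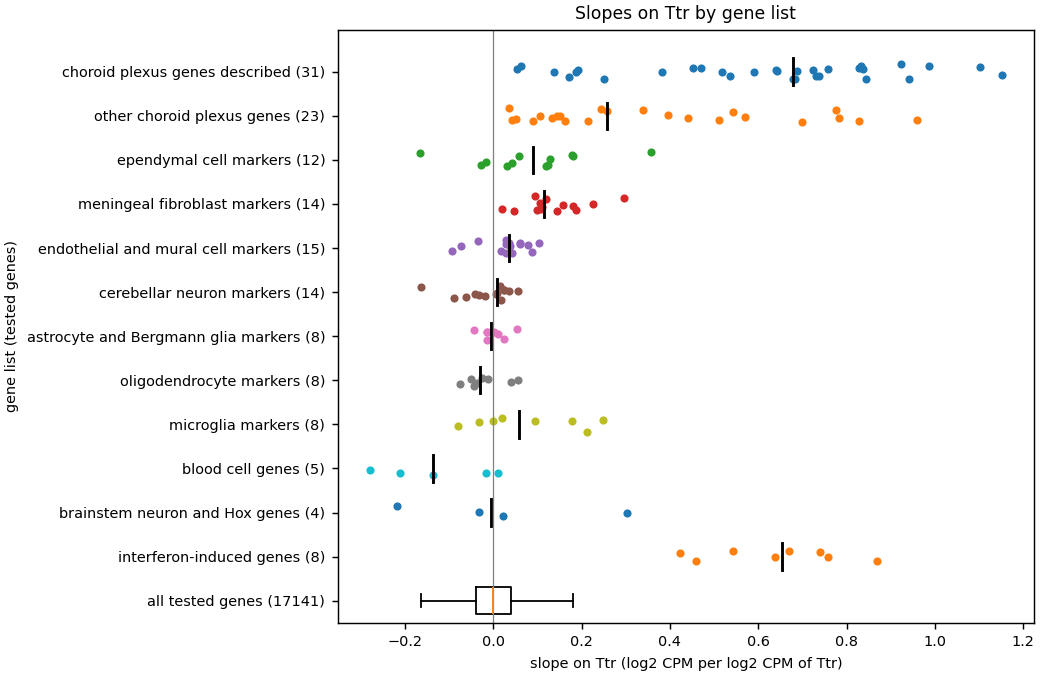
Slopes on Ttr (x axis, log2 CPM per log2 CPM of Ttr) of the tested genes of each list, with a bar at the median; the number tested is in brackets, and the box at the bottom gives the middle range of all tested genes with whiskers at the 5th and 95th percentiles. The medians of the choroid plexus genes described (0.68) and the interferon-induced genes (0.65) lie to the right of those of the other lists. The further choroid plexus list has a median of 0.26, and its single genes (0.04 to 0.96) overlap with those described (0.05 to 1.15).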

How the data were processed

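RNA from whole cerebellum was extracted with TRIZOL and libraries were made by a sequencing company, per the labels' protocols. The submitters' processing notes name HISAT2, DESeq2 and build GRCm38.p6, and the sources used here do not give the counting program or strand setting. The authors deposited 1 table with whole-number counts per gene, FPKM per gene and library, and log2 fold changes with p-values of their own KO against WT comparison. FPKM served only to compare levels between genes.

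Counts were tested with edgeR 4.0.16 (quasi-likelihood F test, TMM factors 0.990 to 1.01, filterByExpr by group, Benjamini-Hochberg over all tested genes), as KO against WT and as a slope on log2 CPM of Ttr. SE is the estimate over the root of F. CPM are TMM-normalized. DESeq2 1.42.0, limma-voom (limma 3.58.1), other normalizations and filters, and left-out libraries were alternatives. Steps were tested on simulated data. Pairs of libraries differed beyond counting error (chi-square per degree of freedom 4.97 to 20.2).

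The 32 genes, the lists and the tests were chosen with earlier results of these data known. Named genes were all 32, Slc39a14, called or otherwise the most abundant genes of the further choroid plexus list, the 2 most abundant genes of marker lists, and genes outside all lists with the smallest p on Ttr (10 positive, 5 negative). A few genes that this rule names are not reported here. Slc12a2 and Vat1l were named for their level after their values were seen. Intervals cover counting error and the spread between 6 libraries only.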

Additional observations from a re-analysis of the deposited data

How the results depend on the processing

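The count of choroid plexus genes called between KO and WT was 0 under every alternative run except without a count filter (18, among 142 of 32046 genes). Their median log2 fold change was 0.76 to 1.78 with single libraries left out, and -0.17 with Ttr in the fit. The number with a called slope on Ttr was 8 to 16 with single libraries left out. It was 2 without WT 5 and KO 4 and 1 with genotype in the fit. DESeq2 gave 21 (of 46 genes called) and limma-voom 16 (of 21). With edgeR it was 19 without a count filter (of 33) and 18 with robust shrinkage (of 22). The median slope was 0.59 to 0.69 with single libraries left out and 1.198 with Clic6 in place of Ttr as the reference gene; that scale follows from the smaller slope of Clic6 on Ttr. The number following the order of Ttr was 26 to 29 with single libraries left out and 24 without WT 5 and KO 4.

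With Ttr in the fit the log2 fold change turned negative for 26 single genes. It was -0.15 for Enpp2, -0.40 for Sostdc1, -0.55 for Kl, -0.16 for Lbp, -0.050 for F5, -0.28 for Sulf1, -2.2e-05 for Otx2, -0.78 for Msx1 and -0.46 for Aqp1. It was -0.48 for Slc4a5, -0.33 for Slc13a4, -0.37 for Car12, -0.0034 for Clic6, -1.2e-05 for Trpm3, -0.17 for Trpv4, -0.086 for Folr1, -0.46 for Prlr and -0.034 for Mfrp. It was -0.48 for Steap1, -0.16 for Tmem72, -0.44 for Perp, -0.32 for Krt8, -0.31 for Krt18, -0.20 for Spint2, -0.57 for Wdr86 and -0.094 for Cab39l. Without WT 5 and KO 4 it was -0.15 for Msx1, -0.13 for Perp and -0.10 for Spint2, whose slope on Ttr was then -0.020. With single libraries left out, the log2 fold change of Trpm3 was -0.019 (without KO 4) to 0.19 and its slope -0.0071 (without KO 4) to 0.12. The cause of these changes was not tested.

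No paired analysis was possible because WT animals 1, 3 and 5 and KO animals 2, 4 and 6 share no number. Depth limited Krt8, Krt18 and Steap1, with 1 to 3 counts in WT 5. Counts in WT 5 were also low for Wdr86 (9), Sostdc1 (10), Folr1 (12), Calml4 (13), Mfrp (14) and Aqp1 (15).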

Other observations

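Outside the lists above, the genes with the smallest p for a positive slope on Ttr (protein-coding, mean of 1 CPM or more) included Abca4, Dsp, Vwa3a, Prr32, Esd, Drc7, Sema3b, Cfap44 and Zfp185. Among these, Abca4, a transporter of retinoids, passed (slope 0.66, SE 0.077, edgeR adjusted p = 0.0142), and it was the only gene outside the choroid plexus lists that did. It had 44 counts in WT 5, 93 in WT 3, 104 in KO 6, 154 in WT 1, 210 in KO 2 and 316 in KO 4, in the order of Ttr. Dsp, the desmosome protein desmoplakin, had 5 counts in WT 5 and 57 in KO 4 (slope 0.94, SE 0.14). Drc7 and Cfap44, components of motile cilia, had slopes of 0.55 (SE 0.10) and 0.32 (SE 0.064). The slopes of the genes named here other than Abca4 did not pass.

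The 5 genes with the smallest p for a negative slope were Abi3bp, Etnppl, Gapdh, Dnajb11 and Speer4b, and none of them passed. Gapdh, an enzyme of glycolysis, had 1085 counts in WT 5 and 233 to 317 in the other 5 libraries. Its slope on Ttr of -0.55 (SE 0.12) thus goes with that library, which was also the lowest in Ttr.

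Slc15a2, a peptide transporter of the further choroid plexus list, was singled out after its values were seen. It was at 10.4 CPM in WT 5, 40.1 in WT 3, 11.99 in KO 6, 8.20 in WT 1, 12.3 in KO 2 and 114 in KO 4. WT 3 and KO 4 were high and the others alike, so that 10 of its 15 pairs were in the order of Ttr.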
